A study of Mus musculus with 12 samples.

Results

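The genes described here are 10 antioxidant and heme-handling genes, *Nfe2l2*, *Hmox1*, *Nqo1*, *Slc7a11*, *Gclc*, *Gclm*, *Txnrd1*, *Srxn1*, *Prdx1* and *Sod2*, chosen by name as pathway members and each found once in both count tables, out of 52636 genes. They were measured by 3′-end RNA-seq with unique molecular identifiers in neutrophils and macrophages from bone marrow of C57BL/6J mice aged 8 to 12 weeks. Freshly isolated neutrophils received 1 nM calcitonin gene-related peptide (CGRP), a neuropeptide of pain-sensing neurons, or saline (PBS) for 4 h. Isolated monocytes were first grown for 3 days with 10 ng/ml M-CSF, the growth factor that drives macrophage differentiation, and then received the same CGRP dose or saline for 4 h. Each of the 4 groups had 3 libraries (12 in all), and none of the groups carried a genetic change. The labels do not say whether the 3 libraries of a group came from separate mice or cultures, so P values measure the spread between these libraries, which may be technical. Isolation, medium and 3 days of culture differed along with the cell type and cannot be told apart from it.

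NRF2, the protein made from *Nfe2l2*, is the transcription factor that switches on genes against oxidants and electrophiles. KEAP1 holds it back by steering it to degradation, and BACH1, a repressor that lets go of DNA when it binds heme, occupies many of the same sites. The genes it is known for supply glutathione (*Slc7a11*, *Gclc*, *Gclm*), run the thioredoxin system (*Txnrd1*, *Srxn1*, *Prdx1*), reduce quinones (*Nqo1*) and break down heme to biliverdin, iron and carbon monoxide (*Hmox1*). *Sod2*, the manganese superoxide dismutase of mitochondria, removes superoxide.

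In both cell types the transcript of *Slc7a11*, the cystine importer that feeds glutathione synthesis, rose with CGRP, 2.03-fold in neutrophils and 2.25-fold in macrophages. *Hmox1* fell in macrophages to 0.651 of its level with saline and did not pass the test in neutrophils, and that difference between the cell types passed its own test. The other 8 genes, *Nfe2l2* included, did not pass the test in neutrophils, nor in macrophages the 7 of them that could be tested there, *Nqo1* having been removed as low. With saline, 6 of the 10 were higher and 2 lower in macrophages than in neutrophils, a contrast in which 67.9% of all genes tested differed. Of the 2 lower, *Nqo1* entered this contrast through its counts in neutrophils.

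Levels are CPM, read counts scaled to library size with the trimmed mean of M values (TMM) over the 12 libraries, and folds are from limma-voom on the log2 scale, with P values adjusted over all genes tested. Library totals were 2196558 to 3631989 counts for neutrophils and 2002559 to 3477069 for macrophages, so that 3 counts, the limit that a count of 0 allows, corresponded to 0.826 to 1.498 CPM before that scaling. Such limits cover counting error only. The markers matched the labelled cell types. The summed level of 10 neutrophil markers was 193800 ± 37340 CPM (SD, n = 3) in neutrophils and 342.7 ± 47.1 in macrophages with saline, with *S100a8* the most abundant in every library. The sum of 10 macrophage markers was 10560 ± 201 CPM in macrophages, led by *C1qb*, and 709.2 ± 16.7 in neutrophils, led by *Cd68*. *Ly6g* was at 0 in 2 of the 6 macrophage libraries and *Mertk* at 0 in 1 of the 6 neutrophil libraries. In these bulk libraries, fewer cells of a type and less RNA per cell cannot be told apart.

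The neutrophil libraries held RNA of other marrow cells. The sum of 8 erythroid genes, led by the hemoglobin gene *Hbb-bs*, was 6575 ± 809 CPM with saline and 6404 ± 749 with CGRP in neutrophils, against 22.8 ± 1.11 and 24.6 ± 4.26 in macrophages. The 4 mast cell and basophil genes, led by *Prss34*, summed to 1085 ± 115 CPM in saline neutrophils, the 4 eosinophil genes, led by *Prg2*, to 627.1 ± 44.6, the 5 B cell genes, led by *Cd79b*, to 125.7 ± 9.01, and the 5 T and NK cell genes, led by *Nkg7*, to 105.8 ± 7.08. That last sum was almost all *Nkg7* (97.1, 104.1 and 108.4 CPM), with the other genes of the list at 0 to 8 counts a library. It is thus a value of *Nkg7* and not of T and NK cells at large. The 5 platelet genes summed to 762.8 ± 187 CPM in saline macrophages, led by *Pf4* and with *Gp9* and *Gp1bb* at 0 in all 3 libraries, and to 168.5 ± 1.14 in saline neutrophils. The 4 dendritic cell genes summed to 21.1 ± 4.82 CPM in saline neutrophils and 3.97 ± 0.820 in saline macrophages. Of the B cell genes, *Cd79a*, *Ms4a1* and *Vpreb3* were at 0 in all 6 macrophage libraries. Of the marker genes, 47 were tested for CGRP in neutrophils and 28 in macrophages, and limma-voom, edgeR and DESeq2 called 0 in either cell type, with 4 and 6 at an unadjusted P under 0.05 by limma-voom. The share of all genes at that unadjusted threshold is not given here or below. Such counts are therefore a description, and the shares of called genes are no measure for them. The sums of 4 lists were nevertheless higher with CGRP in macrophages without overlap: those of the macrophage markers went from 10560 ± 201 to 11750 ± 601 CPM, of the neutrophil markers from 342.7 ± 47.1 to 425.2 ± 15.1, of the B cell genes from 31.9 ± 0.699 to 38.1 ± 1.52, and of the dendritic cell genes, among which *Xcr1* was at 0 in all 6 libraries, from 3.97 ± 0.820 to 7.77 ± 1.00. The sums of the erythroid, platelet, T and NK cell, mast cell and basophil, and eosinophil lists overlapped in macrophages. In neutrophils the sum of the T and NK cell genes was lower with CGRP without overlap, 85.5 ± 12.4 CPM against 105.8 ± 7.08, and those of the other lists overlapped. Of all single genes tested, 11.6% were higher without overlap in macrophages and 9.69% lower in neutrophils. The lower sum of the T and NK cell genes was one of *Nkg7*, at 94.9, 68.05 and 85.5 CPM with CGRP, and not of the list at large. The part of these shifts in the results was not tested. A list of genes known to be induced by cyclic AMP, the second messenger of the CGRP receptor, was also read. Of its 8 tested genes, 3 were higher with CGRP in neutrophils, where 1.51% of all genes were. In macrophages 4 of 6 were higher, where 3.46% of all genes were. The list was chosen with earlier results of these data known, so these counts are a description and no check of the response. Of the 3 in neutrophils, *Dusp1* lost its call with DESeq2 (adjusted P = 0.0596), with no low-count filter (0.0648), in a single fit over the 12 libraries (0.0932) and without any library but the third CGRP library (up to 0.155), and *Pde4b* lost it without the second saline library (0.0633). *Nr4a2*, a nuclear receptor gene, rose by 1.47 ± 0.22 (log2, SE) in neutrophils. In macrophages its value was 4.22 ± 0.39, from 4 to 11 counts a saline library and 75 to 131 a CGRP library. It passed the low-count filter there through the CGRP group, so its call among the 4 adds no support of any kind.

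**Figure D1:**
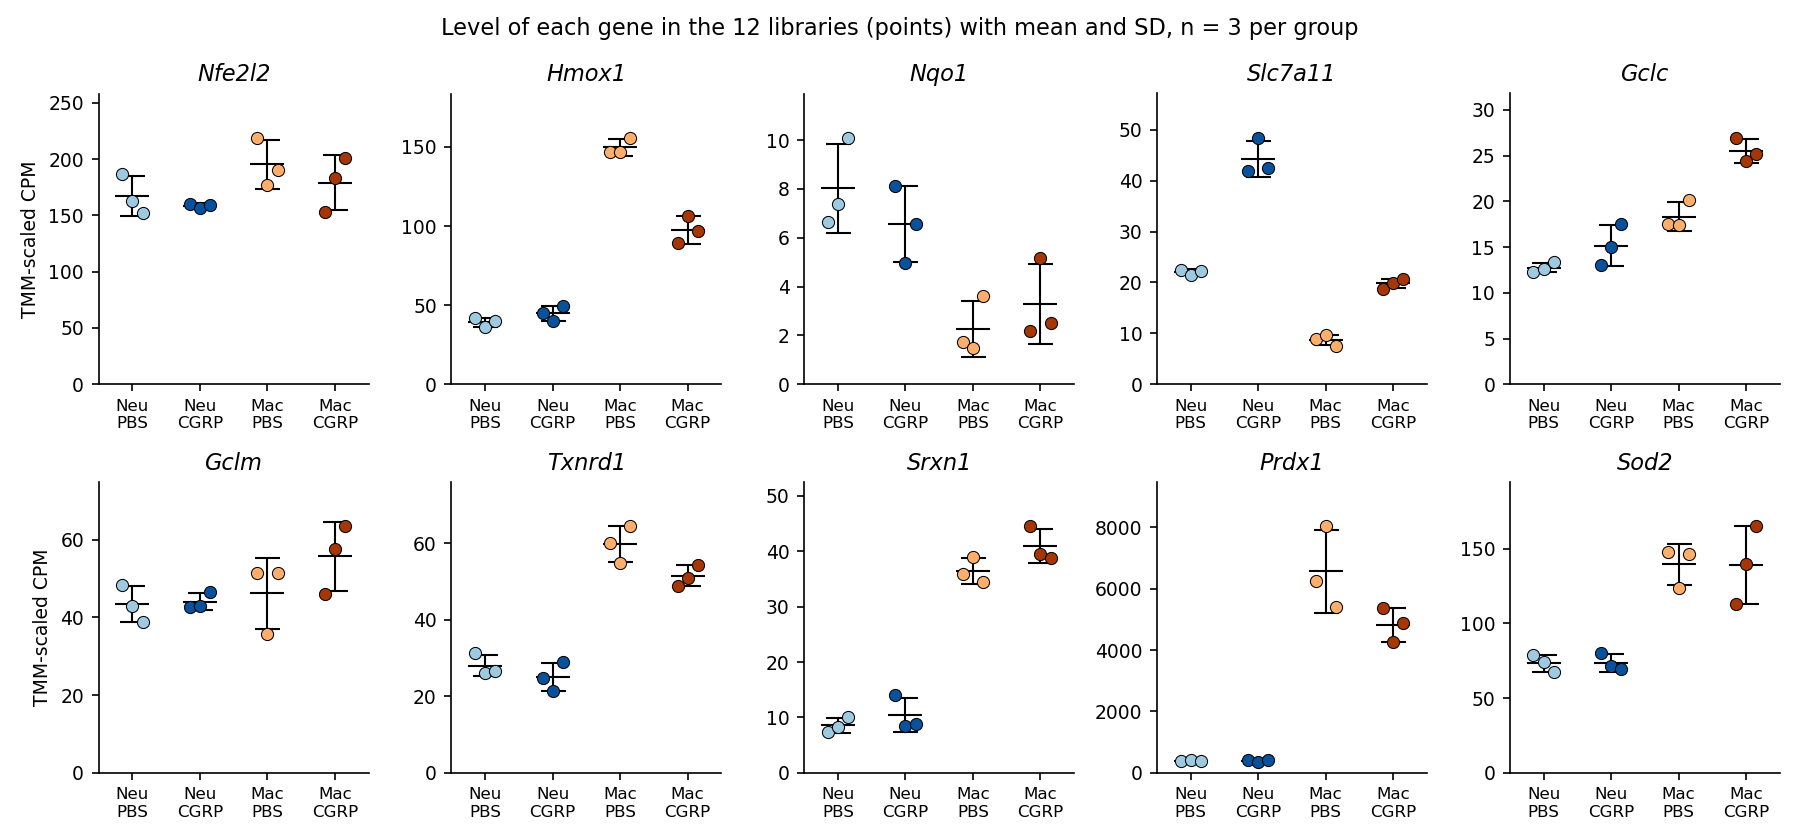
Level of each of the 10 genes (TMM-scaled CPM, linear axes from 0) in the 12 libraries, 1 panel a gene; points are libraries and bars the mean and SD of 3, with Neu for neutrophils, Mac for macrophages and PBS for saline. *Slc7a11* is higher with CGRP in both cell types without overlap, *Hmox1* is lower with CGRP in macrophages (89.3 to 106.4 against 146.6 to 155.7 CPM), and *Prdx1* runs from 4258 to 8029 CPM in macrophages against 359.9 to 416.9 in neutrophils.

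In neutrophils, 1 of the 10 genes passed the test for CGRP, *Slc7a11*, higher, where 2.53% of all 9819 genes tested did (1.51% higher). In macrophages *Nqo1* was removed by the low-count filter, and 2 of the 9 genes tested passed, 1 higher and 1 lower, where 7.43% of 9393 genes did (3.46% higher, 3.97% lower). The treatment groups did not overlap for 1 of the 10 genes in neutrophils (17.8% of all genes, 8.1% higher and 9.69% lower) and for 5 of the 9 tested in macrophages, *Slc7a11* and *Gclc* higher and *Hmox1*, *Txnrd1* and *Prdx1* lower (24.1%, 11.6% higher and 12.5% lower). The median log2 fold change of the 10 genes in neutrophils was 0.02 and that of the 9 in macrophages -0.02, beside 0.00 in each cell type over all genes tested. The log2 fold changes of the 10 genes ran from -0.27 to 1.02 in neutrophils and those of the 9 from -0.62 to 1.17 in macrophages.

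**Figure D2:**
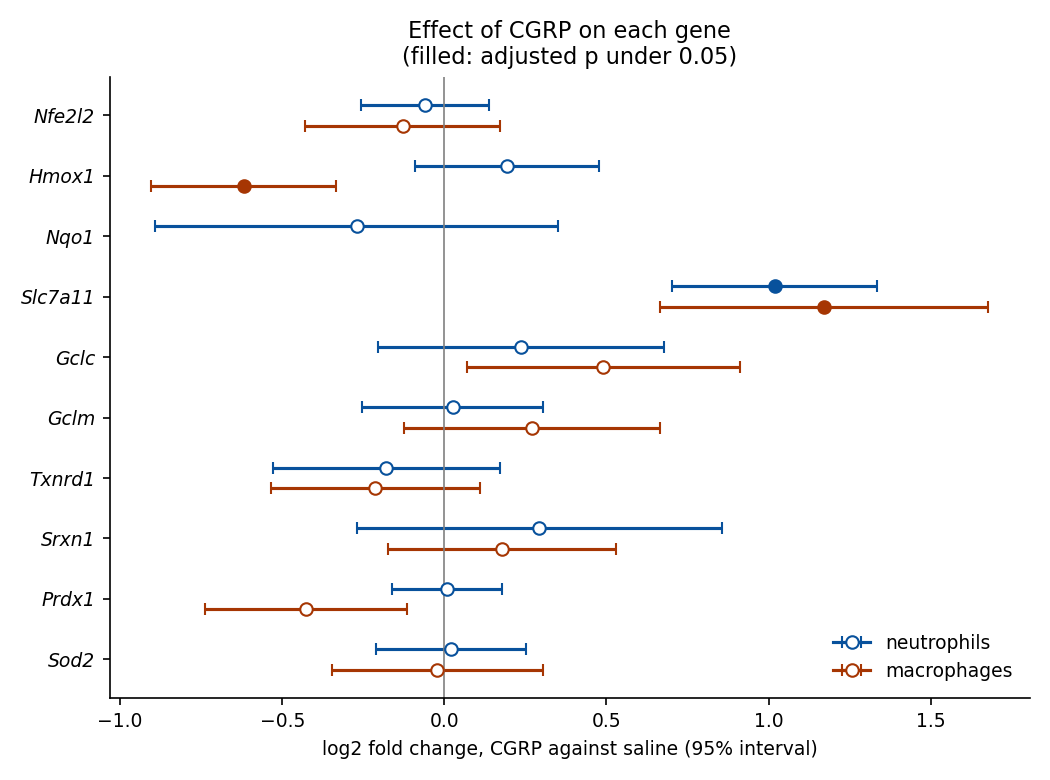
Log2 fold change with CGRP against saline for each gene in neutrophils (blue) and macrophages (brown), with 95% intervals; filled points have an adjusted P under 0.05, and *Nqo1* has no value in macrophages. Filled points are *Slc7a11* in both cell types (1.02 and 1.17) and *Hmox1* in macrophages (-0.62); the intervals of *Gclc* and *Prdx1* in macrophages also leave out 0.

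*Nfe2l2* (ENSMUSG00000015839, chromosome 2, 75675513 to 75704641, minus strand, in GRCm38, as are all gene positions here) was measured with 364 to 763 counts a library. Its levels in neutrophils were 187.2, 162.7 and 152.0 CPM with saline and 160.0, 156.3 and 159.6 with CGRP. In macrophages they were 218.9, 176.8 and 190.2 CPM with saline and 153.3, 183.2 and 201.2 with CGRP. The groups overlapped in both cell types. The log2 fold change was -0.06 in neutrophils (95% interval -0.26 to 0.14, adjusted P = 0.860) and -0.13 in macrophages (-0.43 to 0.17, adjusted P = 0.680). From the highest to the lowest group mean, the order was saline macrophages (195.3 ± 21.5), CGRP macrophages (179.2 ± 24.2), saline neutrophils (167.3 ± 18.0) and CGRP neutrophils (158.6 ± 1.99), and no neighbours in that order differed beyond their spread. The 3 genes with levels most like those of *Nfe2l2* over the 12 libraries, among 10693, were *Tnfrsf13b* (Pearson r = 0.91), *Usp8* (0.90) and *Rilpl1* (0.87). Libraries share their cell type and treatment, so such a likeness is a description.

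Of 11 listed regulators of NRF2, 0 of the 10 tested in neutrophils and 0 of the 9 in macrophages were called by limma-voom, where 2.53% and 7.43% of all genes were, with 0 and 2 at an unadjusted P under 0.05, and edgeR and DESeq2 called 0. *Keap1* and *Bach1* are named for their roles, after their values were seen. *Keap1* had log2 fold changes of 0.00 ± 0.14 (SE) in neutrophils and -0.09 ± 0.16 in macrophages. Those of *Bach1* were 0.13 ± 0.13 and -0.25 ± 0.17.

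*Hmox1*, the inducible heme oxygenase (ENSMUSG00000005413, chromosome 8, 75093621 to 75100589, plus strand), was the member that fell. In macrophages its levels were 146.6, 146.8 and 155.7 CPM with saline and 89.3, 106.4 and 96.6 with CGRP, from 433 to 511 and 192 to 288 counts. Every CGRP library lay below every saline library, and the gap between the nearest libraries exceeded the range within either group. The log2 fold change was -0.62 (SE 0.13, 95% interval -0.90 to -0.33, adjusted P = 8.52e-03), a decrease to 0.651 of the level with saline.

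In neutrophils *Hmox1* was at 41.7, 36.2 and 40.0 CPM with saline and at 45.2, 40.2 and 49.5 with CGRP. These groups overlapped, and the log2 fold change of 0.19 (SE 0.14, interval -0.09 to 0.48) had an adjusted P of 0.624. The effect in macrophages minus that in neutrophils was -0.80 (SE 0.18, interval -1.19 to -0.42, adjusted P = 0.0168), where 2.36% of 10694 genes passed this test (1.21% higher in macrophages, 1.15% lower). Without the second saline library of neutrophils it was -0.74 (adjusted P = 0.0756), and without the first CGRP library of neutrophils -0.79 (adjusted P = 0.0521). The decrease within macrophages passed the test without each of the 6 libraries in turn, with an adjusted P of up to 0.0489. Erythroid RNA, which was abundant in the neutrophil libraries, summed to 22.8 and 24.6 CPM in saline and CGRP macrophages, with *Hbb-bs* the most abundant and *Alas2* at 0 in 3 of the 6 libraries. The part of erythroid cells or their RNA in the values for *Hmox1* was not tested.

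The order of *Hmox1* levels was saline macrophages (149.7 ± 5.18 CPM), CGRP macrophages (97.4 ± 8.57), CGRP neutrophils (44.97 ± 4.68) and saline neutrophils (39.3 ± 2.82), of which the last pair did not differ beyond the spread. The 3 genes most like it over the 12 libraries were *C1qbp*, *Tgs1* and *Tubb2a* (Pearson r = 0.99 each), and *Tubb2a*, a tubulin gene, also fell with CGRP in macrophages (log2 fold change -1.13, adjusted P = 7.99e-05).

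Of 29 other genes of heme and iron handling, 26 were tested in each cell type. *Fth1*, the heavy chain of the iron store ferritin, rose in neutrophils, where its levels were 3523, 3857 and 3172 CPM with saline and 5281, 4488 and 4239 with CGRP. The groups did not overlap, with a change of 0.42 on the log2 scale (SE 0.09, adjusted P = 8.95e-03) that was lost without the first or the third saline library (adjusted P up to 0.0796). The call was also lost in a single fit over the 12 libraries (adjusted P = 0.0808). Of this list limma-voom and edgeR each called 1 of 26 genes in neutrophils and DESeq2 called 2, where limma-voom called 2.53% of all genes. In macrophages 6 of the 26 had an unadjusted P under 0.05 by limma-voom, a count given without the share of all genes. Limma-voom called 0 of the 26 there, beside 7.43% of all genes, and edgeR and DESeq2 also called 0. There *Fth1* had a value of 0.32 (SE 0.13, adjusted P = 0.150), and *Blvra*, biliverdin reductase A, which acts on the product of heme oxygenase, had -0.37 (SE 0.15, adjusted P = 0.170); it is named after its value was seen. The difference of the effect between the cell types passed for *Hp*, haptoglobin, which binds free hemoglobin: 0.80 (SE 0.21, adjusted P = 0.0384), from -0.30 in neutrophils and 0.49 in macrophages, neither of which passed. That call was lost without any of 9 of the 12 libraries, all but the first CGRP library of neutrophils, the third saline and the first CGRP library of macrophages (adjusted P up to 0.146), and with library totals (0.0755) or no low-count filter (0.142). In macrophages the sum of the 10 neutrophil markers, led by *S100a8*, was 342.7 ± 47.1 CPM with saline and 425.2 ± 15.1 with CGRP, without overlap, and its part in the value for *Hp* was not tested.

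*Nqo1*, the quinone reductase often read as a reporter of NRF2 (ENSMUSG00000003849, chromosome 8, 107388225 to 107403206, minus strand), had low counts. Neutrophil libraries held 21, 24 and 28 counts after saline and 25, 17 and 15 after CGRP. Macrophage libraries held 6, 5 and 10 after saline and 7, 14 and 5 after CGRP. The groups overlapped in both cell types. In neutrophils the log2 fold change was -0.27 (SE 0.30, 95% interval -0.89 to 0.35, adjusted P = 0.785). In macrophages it was below the low-count filter, and in the fit over 12 libraries the effect in macrophages minus that in neutrophils was 0.84 (interval -0.37 to 2.06, adjusted P = 0.610).

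*Slc7a11* encodes the transport subunit of system xc-, which exchanges glutamate for cystine (ENSMUSG00000027737, chromosome 3, 49892526 to 50443614, minus strand). Upstream sequence from RefSeq (GRCm38.p6) was matched for 8 of the 10 genes, all but *Hmox1* and *Gclc*. The 250 bases before the start of *Slc7a11*, at chr3:50443614-50443863 on the minus strand, are shown because this was the gene that rose in both cell types. Capitals mark letters TGATGNAA on either strand, the C/EBP-ATF response element.
Slc7a11: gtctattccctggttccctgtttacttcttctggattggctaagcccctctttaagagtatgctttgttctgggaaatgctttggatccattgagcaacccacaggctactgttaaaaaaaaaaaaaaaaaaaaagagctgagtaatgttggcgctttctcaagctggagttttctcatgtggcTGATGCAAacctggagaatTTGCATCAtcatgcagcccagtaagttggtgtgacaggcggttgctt
The 2 matches begin 66 and 47 bases before the start on opposite strands. That motif was in 3.97% of 32851 promoter windows of 300 bases (250 before to 50 after the start), and *Slc7a11* was the only one of the 8 genes with it. Its window held none of the antioxidant response element core (TGACNNNGC), the cyclic AMP response element (TGACGTCA), its half-site (TGACG) or the AP-1 site (TGANTCA). A match is a description of letters, not a site in use.

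In neutrophils *Slc7a11* was at 22.5, 21.5 and 22.3 CPM with saline and 41.9, 48.4 and 42.5 with CGRP. In macrophages it was at 8.89, 9.59 and 7.55 CPM with saline and 18.8, 20.0 and 20.6 with CGRP. All CGRP libraries exceeded all saline libraries of their cell type, by more than the range within either group. The log2 fold change was 1.02 in neutrophils (SE 0.15, interval 0.70 to 1.33, adjusted P = 3.27e-04) and 1.17 in macrophages (SE 0.24, interval 0.67 to 1.68, adjusted P = 5.30e-03). The 2 effects differed by 0.16 with an interval of -0.39 to 0.71 (adjusted P = 0.865), which does not show that they were alike. The macrophage values rest on 21 to 60 counts a library, those of neutrophils on 62 to 165. The order of levels was CGRP neutrophils (44.3 ± 3.57), saline neutrophils (22.1 ± 0.527), CGRP macrophages (19.8 ± 0.922) and saline macrophages (8.68 ± 1.04), and no neighbours in it overlapped.

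*Slc3a2*, the partner chain that carries the transporter to the membrane, named here after its values were seen, had 163.3 ± 19.1 CPM with saline and 201.8 ± 14.8 with CGRP in neutrophils and 292.5 ± 20.4 and 375.4 ± 23.7 in macrophages. The groups did not overlap in either cell type, but with log2 fold changes of 0.33 (adjusted P = 0.0843) and 0.36 (adjusted P = 0.101) it did not pass the test.

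The enzyme that joins cysteine to glutamate, the rate-limiting step of glutathione synthesis, has a catalytic subunit from *Gclc* (ENSMUSG00000032350, chromosome 9, 77754535 to 77794485, plus strand) and a modifier subunit from *Gclm* (ENSMUSG00000028124, chromosome 3, 122245557 to 122270732, plus strand). *Gclc* in macrophages was at 17.5, 17.4 and 20.1 CPM with saline and 27.0, 24.4 and 25.2 with CGRP. The groups did not overlap, yet its log2 fold change of 0.49 (SE 0.20, interval 0.07 to 0.91) had an adjusted P of 0.169. In neutrophils *Gclc* was at 12.3, 12.6 and 13.3 CPM with saline and 13.01, 14.96 and 17.5 with CGRP, with overlap and a log2 fold change of 0.24 (SE 0.21).

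*Gclm* overlapped between treatments in both cell types, with log2 fold changes of 0.03 (interval -0.25 to 0.30) in neutrophils and 0.27 (-0.12 to 0.67) in macrophages. Its upstream bases, chr3:122245307-122245556 on the plus strand, hold the antioxidant response element core (capitals) and are shown as those of a gene with the motif whose level did not pass any test here.
Gclm: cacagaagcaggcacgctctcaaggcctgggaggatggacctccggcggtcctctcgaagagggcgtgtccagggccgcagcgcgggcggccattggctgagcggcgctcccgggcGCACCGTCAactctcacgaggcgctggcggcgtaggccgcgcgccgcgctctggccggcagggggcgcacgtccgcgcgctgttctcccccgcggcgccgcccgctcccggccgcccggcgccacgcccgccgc
The match lies on the reverse strand from 134 bases before the start, and the half-site of the cyclic AMP response element overlaps it. This core was in 12.4% of the 32851 promoter windows and in 5 of the 10 windows of the 8 genes, those of *Nfe2l2*, *Gclm*, *Srxn1*, *Prdx1* and the second of 3 starts of *Txnrd1*.

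Among the 17 other genes of the glutathione system, 2 of the 17 tested fell in neutrophils, where 1.02% of all genes did, and 1 of the 15 tested rose in macrophages, where 3.46% did. *Gpx1*, a peroxidase that uses glutathione, went from 6038, 6937 and 5457 CPM with saline to 5191, 4238 and 4129 with CGRP in neutrophils (log2 fold change -0.43, SE 0.09, adjusted P = 0.0131). *Mgst2*, a microsomal glutathione transferase that also makes leukotriene C4, went from 179.6, 198.9 and 194.9 CPM to 139.5, 129.1 and 121.0 (-0.54, SE 0.09, adjusted P = 1.19e-03). In macrophages *Gstm1*, a cytosolic glutathione transferase, went from 356.9, 301.2 and 355.6 CPM to 383.6, 541.6 and 547.9 (0.53, SE 0.15, adjusted P = 0.0428). None of these overlapped between treatments, though the first CGRP library of *Gstm1* lay near the saline libraries. *Gstm1* lost its call without either of the first 2 saline libraries or the last 2 CGRP libraries (adjusted P up to 0.235), and *Gpx1* lost its call without either of the first 2 saline or the last 2 CGRP libraries (up to 0.0981). *Gstm1* also lost it with library totals in place of TMM (adjusted P = 0.100) and with libraries thinned to the smallest (0.0569), and *Gpx1* with edgeR (0.0531) and in a single fit over the 12 libraries (0.0733).

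In the thioredoxin system, *Prdx1*, an abundant cytosolic peroxiredoxin (ENSMUSG00000028691, chromosome 4, 116685544 to 116700822, plus strand), stood out for the gap between cell types. Its upstream bases, chr4:116685349-116685598 on the plus strand, are shown because the antioxidant response element core and an AP-1 site share letters there, with AP-1 sites and the core in capitals.
Prdx1: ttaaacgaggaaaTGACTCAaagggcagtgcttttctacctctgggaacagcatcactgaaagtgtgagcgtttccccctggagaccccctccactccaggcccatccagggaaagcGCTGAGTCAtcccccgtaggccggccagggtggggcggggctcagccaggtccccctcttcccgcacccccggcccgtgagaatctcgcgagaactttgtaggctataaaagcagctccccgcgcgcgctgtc
The first AP-1 match begins 237 bases before the start, the core 133 and the second AP-1 match 131, inside the core. AP-1 letters were in 7.81% of all windows and in 2 of the 10 here, of *Prdx1* and *Srxn1*. The map of motif matches places them along the windows.

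**Figure D3:**
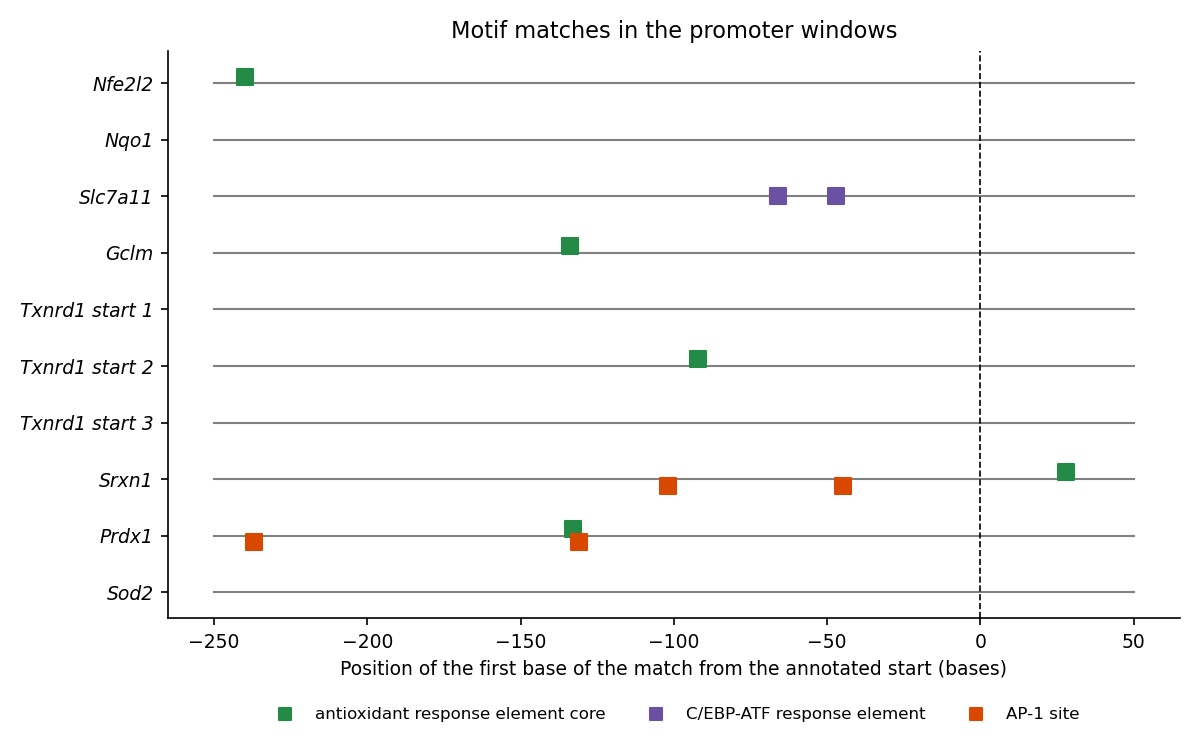
Motif matches in the 10 promoter windows of 8 genes, from 250 bases before to 50 after the annotated start (dashed line); each square is the first base of a match to the antioxidant response element core (green), the C/EBP-ATF response element (purple) or the AP-1 site (orange). The core is in 5 windows, the AP-1 site in 2 and the C/EBP-ATF element in that of *Slc7a11* alone; the windows of *Nqo1*, *Sod2* and the other starts of *Txnrd1* hold none of the 3.

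In macrophages *Prdx1* was at 6247, 8029 and 5404 CPM with saline and 5355, 4258 and 4866 with CGRP. The groups did not overlap, but the third saline library lay just above the first CGRP library. The log2 fold change of -0.43 (SE 0.15, interval -0.74 to -0.11) had an adjusted P of 0.101. Without the third saline library it was -0.55 (adjusted P = 0.0169) and without the first CGRP library -0.51 (adjusted P = 0.0485). Over the 6 libraries left out in turn it ran from -0.55 to -0.27 and passed for 2, with an adjusted P of up to 0.400. In neutrophils *Prdx1* was at 396.5, 400.3 and 395.9 CPM with saline and 414.2, 359.9 and 416.9 with CGRP, with a log2 fold change of 0.01 (interval -0.16 to 0.18). The difference of the effect between the cell types, -0.42, had an adjusted P of 0.277.

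*Txnrd1*, cytosolic thioredoxin reductase (ENSMUSG00000020250, chromosome 10, 82833951 to 82897712, plus strand), was at 59.96, 54.8 and 64.4 CPM with saline and 48.9, 50.98 and 54.3 with CGRP in macrophages. The groups lay close without overlapping, and the log2 fold change of -0.21 (interval -0.54 to 0.11) did not pass the test. In neutrophils it was -0.18 (-0.53 to 0.17). *Srxn1*, sulfiredoxin, which restores over-oxidized peroxiredoxins (ENSMUSG00000032802, chromosome 2, 152105516 to 152111376, plus strand), had log2 fold changes of 0.29 in neutrophils (-0.27 to 0.85) and 0.18 in macrophages (-0.17 to 0.53). Its levels overlapped in both cell types, with 20 to 43 counts a neutrophil library.

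Of 13 other genes of the thioredoxin and peroxiredoxin system, 1 of the 11 tested rose in neutrophils, where 2.53% of all genes passed, and in macrophages 3 of the 12 tested rose and 1 fell, where 7.43% passed. *Prdx6*, a peroxiredoxin that also acts on phospholipids, rose in both. It went from 400.9, 418.7 and 386.6 CPM to 600.8, 588.4 and 523.5 in neutrophils (log2 fold change 0.52, SE 0.08, adjusted P = 4.15e-04) and from 96.1, 107.0 and 92.4 CPM to 141.3, 144.1 and 139.4 in macrophages (0.53, SE 0.13, adjusted P = 0.0209). The macrophage value rested on several libraries: without the first saline, the second CGRP or the third CGRP library the adjusted P was up to 0.121.

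The sestrins, stress-induced regulators of mTORC1 signalling, moved in opposite directions in macrophages. *Sesn1* went from 192.2, 246.0 and 226.5 CPM with saline to 69.6, 62.8 and 64.9 with CGRP. On the log2 scale it changed by -1.74 (SE 0.15, adjusted P = 1.64e-06). *Sesn2* went from 5.74, 5.10 and 11.2 CPM to 21.6, 24.4 and 21.1, which is 1.72 on that scale (SE 0.29, adjusted P = 1.06e-03). Neither gene's groups overlapped in macrophages, and both overlapped in neutrophils, with log2 fold changes of -0.14 (adjusted P = 0.869) and 0.05 (adjusted P = 0.937). The difference between the cell types passed for *Sesn1* (-1.58, adjusted P = 1.70e-03) and *Sesn2* (1.68, adjusted P = 5.71e-03, or 0.0534 without the first saline library of macrophages). *Txnip*, which binds thioredoxin and blocks it, rose in macrophages from 53.7, 65.0 and 67.2 CPM to 87.1, 92.0 and 86.5 (0.53, SE 0.15, adjusted P = 0.0376), a call lost without the first saline library or any of the 3 CGRP libraries (adjusted P up to 0.242), with library totals (0.0819) and with no low-count filter (0.0780).

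**Figure D4:**
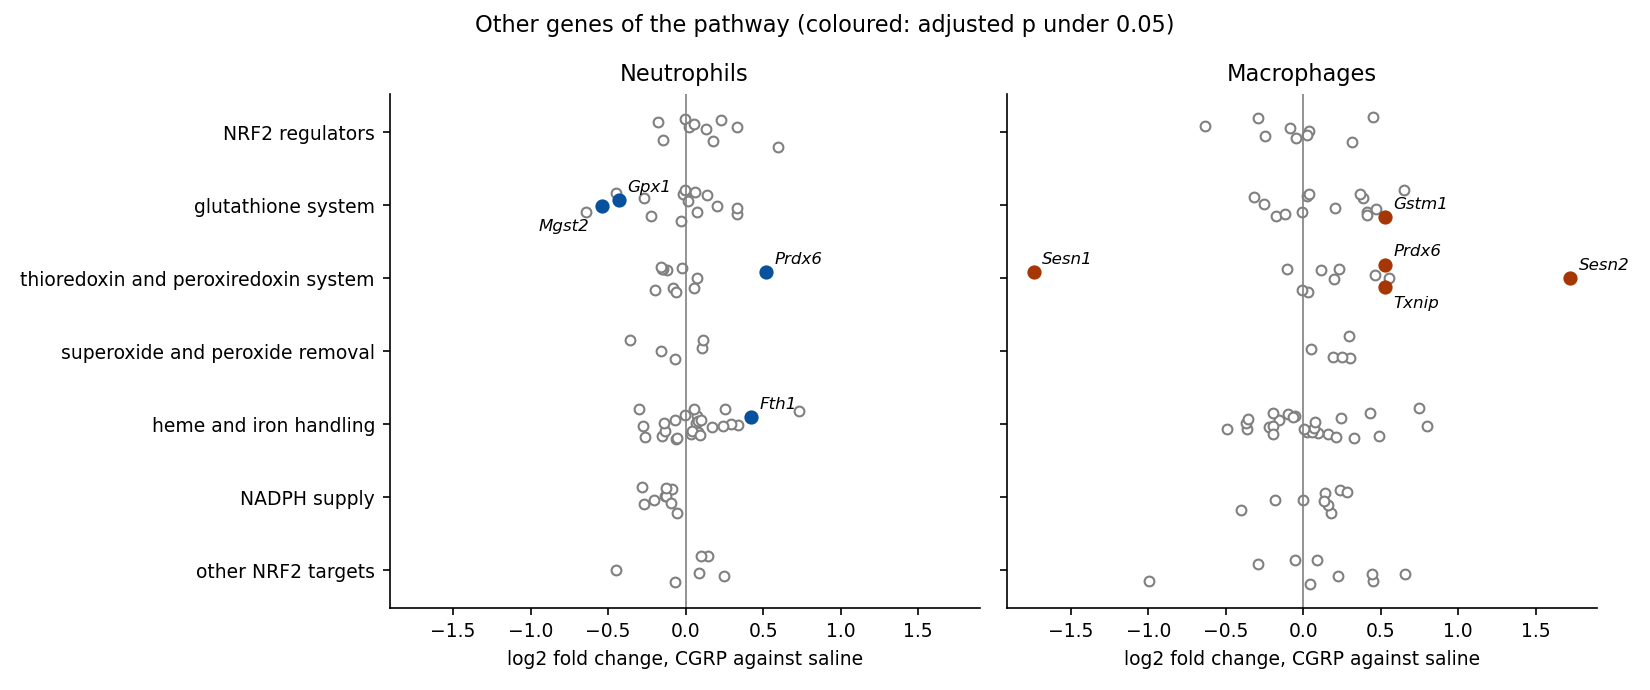
Log2 fold change with CGRP against saline of the other genes of the pathway, grouped by list (vertical axis), in neutrophils (left) and macrophages (right); each point is a gene tested, and coloured, named points have an adjusted P under 0.05. Named genes lie between -0.54 and 0.52 in neutrophils, while *Sesn1* (-1.74) and *Sesn2* (1.72) lie farthest from 0 in macrophages.

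*Sod2* (ENSMUSG00000006818, chromosome 17, 13006846 to 13040063, plus strand) was at 73.4 ± 5.70 CPM with saline and 73.6 ± 5.88 with CGRP in neutrophils, and at 139.5 ± 13.6 and 139.2 ± 26.1 in macrophages. Its log2 fold changes were 0.02 (interval -0.21 to 0.25) and -0.02 (-0.35 to 0.30). Of the 31-base stretches in the last 500 bases of its transcript, 16.8% also occur in transcripts of 289 other genes, so its counts are uncertain if the authors' counting could share those reads. Limma-voom, edgeR and DESeq2 called 0 of the 5 other tested genes of superoxide and peroxide removal in either cell type, 0 of 9 that supply NADPH, and 0 of 6 and 0 of 9 other NRF2 targets in neutrophils and macrophages. Over all genes limma-voom called 2.53% and 7.43%, so that lists of this length have few or no calls at that share. At an unadjusted P under 0.05 by limma-voom there were 0, 2 and 0 genes in neutrophils and 1, 2 and 3 in macrophages.

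Over the 7 lists together, 97 genes, 4 of the 84 tested in neutrophils passed (2 higher, 2 lower, 4.76%, beside the 2.53% of all genes) and 5 of the 85 in macrophages (4 higher, 1 lower, 5.88%, beside 7.43%). These counts depended on the setting: with no low-count filter they were 8 and 8, and in a single fit over the 12 libraries 2 and 10, and quality weights gave 16 of 85 in macrophages. Over all genes in macrophages, the single fit called 1050 of 10694, quality weights 1406 of 9393 and no low-count filter 777 of 18004. Under these settings the lists' share lay above that of all genes and not below it. It lay narrowly above with DESeq2 (6 of 85, 654 of 9393) and with a filter of 10 counts in 1 library (6 of 89, 667 of 10336). With edgeR, library totals and thinned libraries it lay below. So it did with DESeq2 size factors (5 of 85, 708 of 9393) and with a block for replicate number (8 of 85, 1007 of 9393). Their median log2 fold changes were -0.005 and 0.08, beside 0.00 over all genes. The difference between the cell types passed for 4 of 89, 3 higher and 1 lower (4.49%, beside 2.36%). Besides *Hp* and the sestrins, the fourth was *Mgst1*, a microsomal glutathione transferase, at 0.71 (SE 0.17, adjusted P = 0.0250), from -0.22 in neutrophils and 0.47 in macrophages, neither of which passed. It was lost without any saline library of neutrophils, their second CGRP library, the first saline or the third CGRP library of macrophages (adjusted P up to 0.136).

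With saline, 8 of the 10 genes differed between macrophages and neutrophils, where 67.9% of 10694 genes did (32.5% higher, 35.4% lower), and in all 8 the groups did not overlap, as in 70.5% of genes (33.9% higher, 36.6% lower). These 8 include *Nqo1*, which passed the low-count filter through its counts in neutrophils. *Prdx1* stood farthest apart, at 6560 ± 1341 CPM in macrophages and 397.6 ± 2.35 in neutrophils, 16.3-fold (log2 difference 4.03, SE 0.12, adjusted P = 5.07e-18). *Srxn1*, which acts on the same protein, was at 36.5 ± 2.28 and 8.55 ± 1.43 CPM, 4.27-fold higher in macrophages (adjusted P = 1.75e-08). *Hmox1* was 3.80-fold higher (log2 difference 1.93, adjusted P = 6.98e-12).

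*Txnrd1* at 59.7 ± 4.76 against 28.0 ± 2.86 CPM and *Sod2* at 139.5 ± 13.6 against 73.4 ± 5.70 CPM were also higher in macrophages, with log2 differences of 1.08 and 0.92 (adjusted P = 1.01e-06 and 3.03e-06). *Gclc* was higher by 0.51 (adjusted P = 0.0254), a call lost without the first or second saline library of neutrophils or the third of macrophages (adjusted P up to 0.0714). *Slc7a11* was lower in macrophages, by a log2 difference of -1.33 (SE 0.21, adjusted P = 6.52e-06), and so was *Nqo1*, at 2.27 ± 1.15 against 8.03 ± 1.82 CPM (log2 difference -1.85, adjusted P = 4.36e-04). *Nqo1* had 5 to 10 counts a saline macrophage library and 21 to 28 a saline neutrophil library. It passed the low-count filter through the neutrophils, the group in which it was high, so its call is given as a description. *Nfe2l2* (0.22, adjusted P = 0.106) and *Gclm* (0.06, adjusted P = 0.743) did not pass. Without the second saline library of macrophages *Nfe2l2* passed, at 0.30 (adjusted P = 0.0447). The erythroid, basophil and eosinophil RNA of the neutrophil libraries moved with this contrast, and its part in these differences was not tested.

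**Figure D5:**
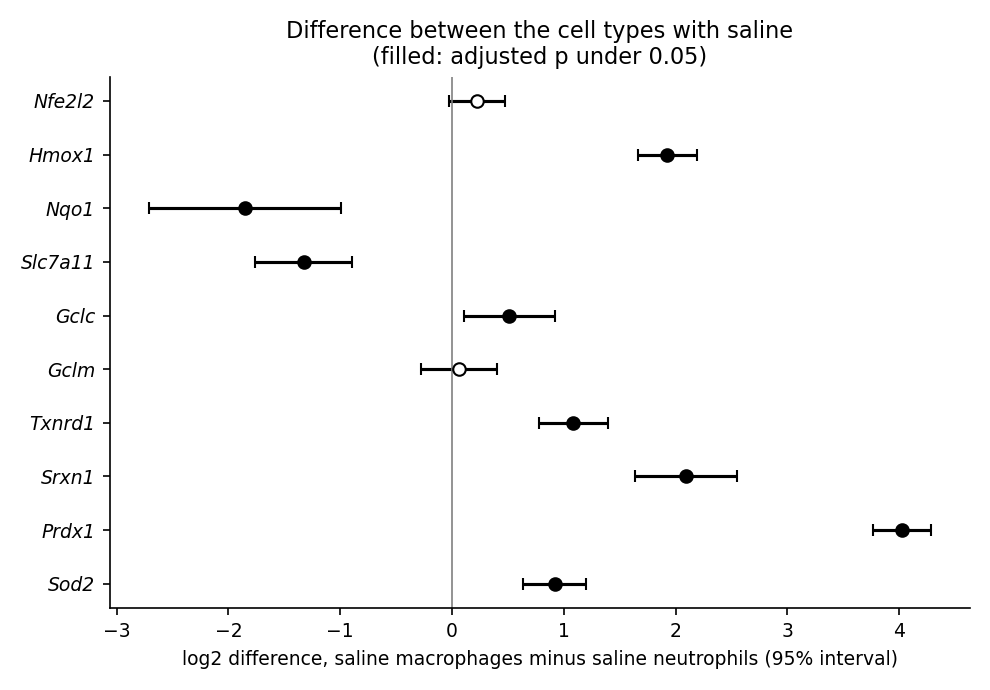
Log2 difference between saline macrophages and saline neutrophils for each gene, with 95% intervals; filled points have an adjusted P under 0.05, and positive values are higher in macrophages. *Prdx1* (4.03), *Srxn1* (2.09) and *Hmox1* (1.93) lie farthest to the right, *Nqo1* (-1.85) and *Slc7a11* (-1.33) to the left, and *Nfe2l2* and *Gclm* near 0. *Nqo1* passed the low-count filter through its counts in neutrophils.

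Of the 89 other pathway genes tested in this contrast, 38 were higher and 41 lower in macrophages (88.8%, beside 67.9% of all genes), or 39 and 37 with library totals in place of TMM. Some of these passed the low-count filter through the cell type in which they were high, among them *Mgst2*, *Cd163*, *Cbr3* and *Akr1b8*. Their calls, and the counts that include them, are given as a description. *Nfe2*, a relative of NRF2 known from erythroid cells and megakaryocytes, was at 356.1 ± 14.1 CPM in neutrophils and 3.47 ± 0.553 in macrophages, and *Mafg*, a partner of these factors on DNA, at 155.7 ± 6.73 and 32.9 ± 4.33. *Gsr*, glutathione reductase, was at 478.0 ± 37.2 against 27.9 ± 4.17 CPM, and *Hp* at 2080 ± 177 against 29.0 ± 2.30. Genes of NADPH supply were mostly lower in macrophages, 7 of the 9 tested, where 35.4% of all genes were, with *Mthfd2* at 54.3 ± 0.359 against 236.0 ± 9.22 CPM, while *Idh1*, which makes NADPH in the cytosol, was higher, at 343.4 ± 18.9 against 76.4 ± 5.99. *Cat*, catalase, was higher in macrophages (131.8 ± 12.2 against 28.8 ± 2.75 CPM), and *Msrb1*, a methionine sulfoxide reductase, lower (133.3 ± 10.3 against 703.1 ± 40.4). *Sesn1* was at 221.6 ± 27.2 CPM in macrophages and 11.7 ± 1.15 in neutrophils, and *Sesn2* the other way, at 7.33 ± 3.32 and 40.6 ± 9.48. Near the limit of counting in 1 of the cell types were *Mgst2* (1.46 ± 0.0359 CPM in macrophages, 191.1 ± 10.2 in neutrophils), *Cd163*, a hemoglobin scavenger receptor (0.559 ± 0.540 and 6.32 ± 1.39), and the reductases *Cbr3* (22.5 ± 5.83 and 0.776 ± 0.264) and *Akr1b8* (89.7 ± 11.3 and 1.68 ± 1.20).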

How the data were processed

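Per the labels and methods, poly(A)-primed cDNA with unique molecular identifiers was sequenced, reads were aligned to GRCm38 with STAR, and the authors deposited raw gene counts from featureCounts in 1 table for each cell type. Annotation release and strand setting are not given in the sources used here, so overlapping and antisense genes could not be told apart; genes overlapping these 10 had at most 15 counts a library. Counts were analysed in R 4.3.3 with limma 3.58.1 (voom, TMM, filterByExpr with a minimum of 10 counts, two-sided, Benjamini-Hochberg, threshold 0.05), as 6 libraries for each cell type and 12 for contrasts between them. edgeR 4.0.16, DESeq2 1.42.0, other scalings, filters, weights, thinning and leaving out libraries were alternatives, and the code was tested on simulated data. No libraries were identical. Members and lists were chosen with earlier results of these data known. The text names all members, at most 4 called genes a pathway list and cell type (2 in saline), at most 3 of the cyclic AMP list, leading markers or those at 0 (some are not reported here), and the 3 genes most correlated (log2 of CPM plus 0.5) with *Nfe2l2* and *Hmox1*. *Flvcr1* and *Flvcr2* of the heme list are *Mfsd7b* and *Mfsd7c* in the tables. Of the table's gene IDs, 52489 matched GENCODE.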

Additional observations from a re-analysis of the deposited data

Results flagged for a closer look

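The effect of CGRP on *Hmox1* differed between the cell types by a test of the difference itself, -0.80 on the log2 scale (limma-voom interaction term, adjusted P = 0.0168), with levels lower with CGRP in 3 of 3 macrophage libraries than in any saline library. The *Hmox1* call was lost without the second saline library of neutrophils (adjusted P = 0.0756) or their first CGRP library (0.0521). The same test passed for 4 other pathway genes: *Sesn1* (-1.58), *Sesn2* (1.68), *Hp* (0.80) and *Mgst1* (0.71). Of the 8 tested genes of the list induced by cyclic AMP, 3 passed this test, where 2.36% of all genes did: the effect in macrophages minus that in neutrophils was 2.88 for *Crem*, 2.86 for *Pde4b* and 2.75 for *Nr4a2*. The other 5 did not pass, and *Crem* on its own did not pass in neutrophils (0.81, adjusted P = 0.0692). *Nr4a2* had 4 to 11 counts a saline macrophage library, so the size of its difference is uncertain. The calls for *Hp* and *Mgst1* held without 3 and 6 of the 12 libraries taken out in turn, that for *Hp* was also lost with library totals (0.69, adjusted P = 0.0755) and with no low-count filter (0.79, adjusted P = 0.142), and the calls for *Sesn1* without all 12 and *Sesn2* without 11. No explanation of these differences was tested.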

How the results depend on the processing

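*Slc7a11* kept its call in both cell types, and *Hmox1* in macrophages, under each of 10 alternatives and without each of the 6 libraries of the fit. The *Hmox1* interaction passed in 9 of 9 alternatives and 10 of 12 omissions. *Prdx1* in macrophages passed with library totals in place of TMM (-0.48), no low-count filter (-0.44), quality weights (-0.47) and a single 12-library fit (-0.43). *Gclc* in saline lost its call with DESeq2 (adjusted P = 0.0598), and *Nfe2l2* gained one with library totals (0.32, adjusted P = 0.0339) and quality weights (0.28, adjusted P = 0.0193). Of 724 member values recomputed, 678 kept direction and side of the threshold and 30 changed sign, each at a value that did not pass. In neutrophils these were *Prdx1* (-0.0099 unfiltered, -0.004 thinned, -0.0071 in the single fit) and *Gclm* (-0.0235 thinned), in macrophages *Sod2* (0.0119 thinned), between cell types *Txnrd1* (0.10 thinned). With 1 library left out, neutrophil values ran from -0.12 to 0.025 (*Nfe2l2*), -0.0422 to 0.11 (*Gclm*), -0.0362 to 0.0731 (*Sod2*) and -0.0339 to 0.0722 (*Prdx1*), macrophage *Sod2* from -0.14 to 0.12, interactions from -0.28 to 0.14 (*Srxn1*), -0.16 to 0.0433 (*Txnrd1*), -0.16 to 0.12 (*Sod2*) and -0.15 to 0.05 (*Nfe2l2*), and *Gclm* in saline from -0.0304 to 0.25.

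Counts over all genes depended on the setting, and the cause was not tested. The single fit called 137 in neutrophils and 1050 in macrophages (248 and 698 as reported), and quality weights 1406 in macrophages and 520 for the interaction (252). Library totals gave 150 higher and 64 lower in neutrophils (148 and 100 with TMM) and 88 higher and 154 lower for the interaction (129 and 123), whose median moved from 0.02 to -0.10. The split was 245 higher and 405 lower in macrophages (325 and 373), and in saline it turned to 3720 higher and 3441 lower (3472 and 3791), with 39 and 37 other pathway genes (38 and 41). With 1 library left out, counts were 138 to 234 in neutrophils (138 without the first or the second saline library, 153 without the second CGRP library), 347 to 765 in macrophages (347 without the first saline, 348 without the second and 439 without the third CGRP library), 149 to 328 for the interaction (149 without the first saline macrophage library) and 6889 to 7559 in saline. Members called were 1 to 1 in neutrophils, 2 to 3 in macrophages, 0 to 1 for the interaction (0 without the second saline or the first CGRP library of neutrophils) and 7 to 9 in saline.

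Replicate numbers are shared between groups. Deviations of same-numbered libraries had r of -0.01 to 0.13 in neutrophils and -0.18 to 0.27 in macrophages. Those of differently numbered libraries had r of -0.14 to 0.10 and -0.40 to 0.38. With 3 same-numbered pairs a cell type, these values do not settle whether libraries were paired. With the replicate block 289, 1007, 337 and 6049 genes were called in neutrophils, macrophages, the interaction and saline, against 248, 698, 252 and 7263. The block put *Gclm* in saline at -0.0348 and gave no call for *Gclc* there (adjusted P = 0.0606). Other pathway genes called with the block were 4, 8, 4 and 64, against 4, 5, 4 and 79. Without a library they ran from 2 to 6, 2 to 8, 1 to 5 and 68 to 79, and quality weights gave 16 in macrophages and 9 for the interaction. *Nqo1*, with 5 to 14 counts a macrophage library, was removed there by the low-count filter; with another or no filter, or in the single fit, it was tested and not called.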
